A study of Mus musculus with 18 samples.

Results

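Hippocampal transcripts of juvenile mice at the end of a course of oral cannabis extract were compared with those of juvenile mice fed vehicle, on 8 of the 18 bead arrays of a study of cannabis exposure in young C57Bl6/J mice. The arrays were chosen by their labels: 4 arrays of cannabis mice (P28 Can, replicates 1 to 4) and 4 of vehicle mice (P28 Veh, replicates 1 to 4), all at postnatal day 28 (P28). The P28 cannabis group was fed an extract at 20 mg/kg daily for 14 days from P14 until P28, and the labels do not give its cannabinoid content. The P28 vehicle group was fed the same emulsion without extract, 50% sweetened condensed milk with olive oil. Both groups were handled beforehand, fed by hand with a blunted needle and syringe, anaesthetised with isoflurane and killed 70 to 80 minutes after a feed began, so the contrast holds the last dose as well as the course. Litters given cannabis or vehicle were rotated between dams, and the labels do not say that each array is a separate mouse. So p-values measure only the spread between arrays, which may be technical. The other 10 arrays, 5 of adult cannabis mice and 5 of adult vehicle mice at P56, had the same juvenile feeding, then behavioural tests and phencyclidine. They serve for comparison, and they also count in the background filter and in the spread behind every unpaired SE, interval and p-value. That spread is pooled within the 4 groups over all 18 arrays.

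Cannabinoids of the plant act on CB1, the product of Cnr1, a G protein-coupled receptor that lowers transmitter release from presynaptic terminals, and on CB2, the product of Cnr2, found mainly on immune cells. The body's own ligands, anandamide and 2-arachidonoylglycerol, are made on demand in postsynaptic membranes, travel back across the synapse, and are broken down by Faah and Mgll. In the hippocampus, CB1 is densest on the terminals of cholecystokinin interneurons and is also found on glutamatergic terminals and some glia. Immediate early genes are transcribed soon after strong neuronal firing, and targets of the glucocorticoid receptor follow the level of stress hormone, so both kinds can report on the time just before death.

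Values are the deposited log2 probe intensities, in which unexpressed probes formed a peak at 6.77, and a probe was kept if it was above 6.98 in at least 4 of the 18 arrays. This left 18249 of 45281 probes, and 10438 named genes at 1 probe each, the brightest. The background was not subtracted, so differences are compressed, most for dim probes, and 1 unit of log2 is a 2-fold difference only well above it. Within a P28 group, 2 arrays correlated at 0.982 to 0.994 over the kept probes, and between the groups at 0.981 to 0.994. Markers of the dentate gyrus and the CA fields were above background on every P28 array, among them C1ql2 (11.18 to 11.37 in cannabis mice and 11.28 to 11.67 in vehicle mice) and Prox1. Replicates 4 and 5 stood apart from replicates 1 to 3 within their groups (4311 probes at an adjusted p below 0.05), so medians without replicates 4 and 5 are given beside the lists below. In bulk tissue, fewer cells of a type and less RNA per cell cannot be told apart.

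No probe passed an adjusted p of 0.05 between P28 cannabis and P28 vehicle mice (0.0% of those kept, lowest adjusted p 0.908, limma over all kept probes). At an unadjusted p below 0.05 there were 327 probes (1.79%), fewer than the 912 that uniform p-values would give, and among named genes 211 of 10438 (2.02%), of which 124 were higher with cannabis (1.19%) and 87 lower (0.833%). The differences were small: from percentile 1 to percentile 99 of named genes they ran from -0.218 to 0.214, and 20 genes lay beyond 0.5 in size, 11 higher and 9 lower (0.192%). The median SD within a group was 0.113 in cannabis mice and 0.102 in vehicle mice, and the median 95% interval of a difference reached 0.186 either side. The groups did not overlap for 175 genes (1.68%), with all 4 cannabis arrays above all 4 vehicle arrays for 95 (0.91%) and below them for 80 (0.766%). With same-numbered arrays as pairs, 920 probes had an unadjusted p below 0.05 (5.04%), and none passed the adjustment (lowest adjusted p 0.0679, Sgk1).

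**Figure D1:**
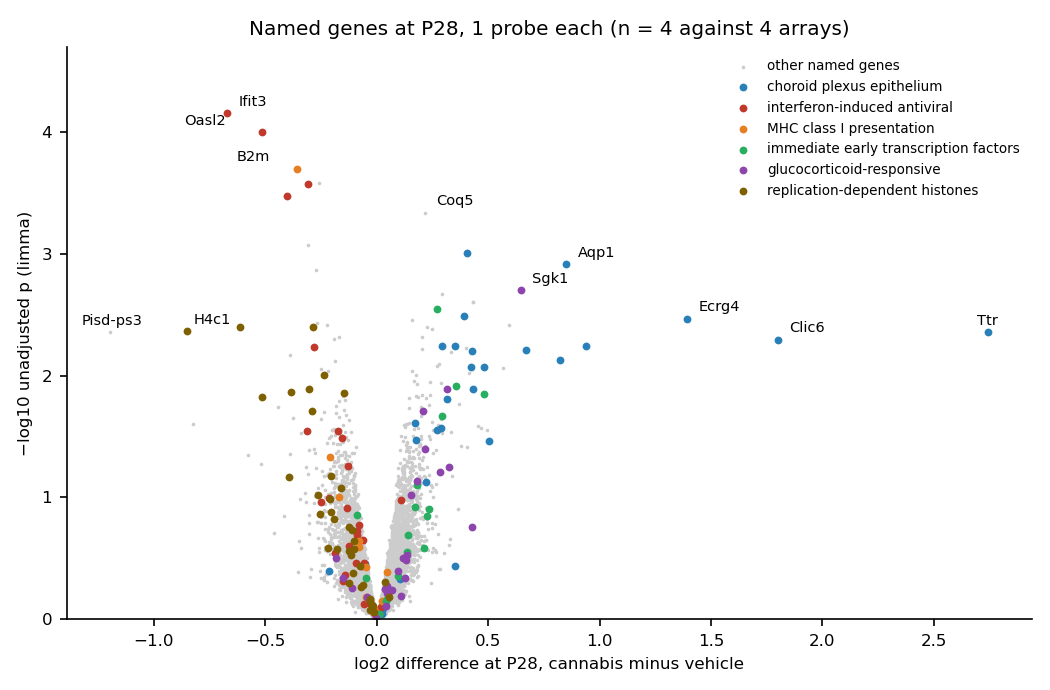
Each point is 1 of 10438 named genes, with the log2 difference of P28 cannabis minus P28 vehicle (4 against 4 arrays) on the x axis and −log10 of limma's unadjusted p on the y axis, and members of 6 gene lists in colour. Most genes lie within 0.2 of 0, choroid plexus genes make up the right arm, with Ttr at 2.74, and Ifit3 and Oasl2 have the smallest p. No gene passed the adjusted test.

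The genes with the smallest p were interferon-induced ones, and they were lower with cannabis. Type I interferons switch on antiviral genes through a short DNA motif near their start, the interferon-stimulated response element (ISRE). Of 51 list members on the array, 28 were above background in enough arrays to be tested, and 26 of those had a lower mean with cannabis and 2 a higher one, with a median of -0.13. Over all named genes 49.6% had a higher mean with cannabis and the median was -0.001. Of these 28, 8 had an unadjusted p below 0.05 on the lower side and 0 on the higher (0.833% and 1.19% of all named genes). Without replicates 4 and 5 the median was -0.18. Among the 28, 3 passed the background filter only through the P28 vehicle arrays and 2 only through the P28 cannabis arrays. Microglial genes, described below, were lower as well, and their part in the interferon list was not tested.

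The upstream windows of 3 genes are shown because they carry the ISRE and belong to the interferon and antigen presentation genes described next. Each is the 250 bases before the RefSeq gene start (GRCm38.p6), 5′ to 3′ on the gene's strand, with the element in capitals, searched on both strands as a pair of GAAA runs spaced by any 2 bases, and merged where matches overlap: Ifit3 at chr19:34583279-34583528, plus strand, Gbp3 at chr3:142559794-142560043, plus strand and B2m at chr2:122147437-122147686, plus strand.
Ifit3: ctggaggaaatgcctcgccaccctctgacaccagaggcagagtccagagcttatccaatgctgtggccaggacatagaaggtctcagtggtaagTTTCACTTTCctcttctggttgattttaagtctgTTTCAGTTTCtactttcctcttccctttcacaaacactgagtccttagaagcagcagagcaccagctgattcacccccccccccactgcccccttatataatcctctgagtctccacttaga
Gbp3: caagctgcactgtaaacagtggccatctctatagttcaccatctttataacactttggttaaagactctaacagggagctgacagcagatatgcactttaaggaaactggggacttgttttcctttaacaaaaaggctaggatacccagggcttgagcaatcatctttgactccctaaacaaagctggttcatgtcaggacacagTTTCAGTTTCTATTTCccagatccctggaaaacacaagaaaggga
B2m: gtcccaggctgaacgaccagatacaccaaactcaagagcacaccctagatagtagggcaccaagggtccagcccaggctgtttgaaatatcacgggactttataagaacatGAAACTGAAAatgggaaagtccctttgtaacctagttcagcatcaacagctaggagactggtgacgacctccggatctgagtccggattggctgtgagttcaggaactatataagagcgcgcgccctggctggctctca
The letters occur in the window of 10 of 22 tested interferon genes with one (45.5%) and of 936 of 27025 genes (3.46%). For the lists described below, the share was 18.2% (2 of 11) for MHC class I genes and 18.8% (3 of 16) for activity-induced effectors. It was 14.3% (2 of 14) for immediate early transcription factors, 4.35% for the glucocorticoid and choroid plexus lists and 5.88% for histones. The letters are not in the windows of Oasl2 and Ifitm1. A match is a run of letters and not a site shown to be bound.

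Ifit3, which binds viral RNA in a complex with other IFIT proteins, had 8.03, 8.02, 7.98 and 8.12 in P28 cannabis mice, against 8.74, 8.88, 8.87 and 8.33 in P28 vehicle mice. All 4 cannabis arrays were below all 4 vehicle arrays, and vehicle replicate 4 was the nearest to them. The difference was -0.67 ± 0.13 (SE), with an unadjusted p of 7e-05 and an adjusted p of 0.908 (limma). Oasl2, an antiviral oligoadenylate synthetase-like protein, had 7.39, 7.30, 7.10 and 7.64 with cannabis, against 7.99, 7.91, 7.93 and 7.66 with vehicle (-0.51 ± 0.10). The groups did not overlap, though replicate 4 of each lay within 0.1 of the other. Ifitm1, a membrane protein that blocks virus entry, had 7.51, 7.63, 7.50 and 7.83 with cannabis, against 7.94, 7.95, 7.91 and 7.91 with vehicle (-0.31 ± 0.07). The vehicle arrays were tight and all above the cannabis arrays. Usp18, which removes ISG15 from proteins and damps interferon signalling, had 6.96, 7.21, 6.92 and 7.03 with cannabis, against 7.36, 7.51, 7.68 and 7.20 with vehicle (-0.40 ± 0.09). It was above background on 2 cannabis arrays and all 4 vehicle arrays, and the groups overlapped by a narrow margin. Gbp3, a guanylate-binding GTPase, had 7.39, 7.44, 7.28 and 7.43 with cannabis, against 7.63, 7.67, 7.72 and 7.52 with vehicle (-0.25 ± 0.15). Zbp1, a sensor of nucleic acids, went the other way with no overlap, at 7.37, 7.36, 7.51 and 7.43 with cannabis, against 7.29, 7.27, 7.33 and 7.34 with vehicle (0.11 ± 0.07).

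By same-numbered pair, the median difference of the 28 genes was -0.17, -0.12, -0.27 and -0.02 in pairs 1 to 4. Their mean level was 7.61 to 7.72 in P28 cannabis mice and 7.74 to 7.88 in P28 vehicle mice, so the levels did not overlap, and the lowest vehicle level was replicate 4. Leaving out each P28 array in turn kept the median between -0.19 and -0.11. In adults the same genes had a median difference of 0.04.

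Of 14 tested genes for MHC class I presentation, by which cells show peptides to T cells, 11 were lower with cannabis and 3 higher, with a median of -0.04, or -0.08 without replicates 4 and 5. B2m, the light chain of every class I molecule, had 10.33, 10.36, 10.31 and 10.50 in P28 cannabis mice, against 10.67, 10.67, 10.95 and 10.66 in P28 vehicle mice. All cannabis arrays were below all vehicle arrays. The difference was -0.36 ± 0.08, with an unadjusted p of 0.000199 and an adjusted p of 0.967 (limma). H2-T23, a non-classical heavy chain, had 7.33, 7.30, 7.34 and 7.29 with cannabis, against 7.62, 7.55, 7.65 and 7.28 with vehicle (-0.21 ± 0.10), with vehicle replicate 4 at the cannabis level. The classical heavy chains H2-D1 (-0.17 ± 0.10) and H2-K1 (-0.05 ± 0.11) are close copies of other class I genes, so their probes may read more than 1 gene. In this list 1 gene, B2m, had all cannabis arrays below (0.766% of all named genes did). Another 1, Psme2, had all cannabis arrays above, at a difference of 0.05 (0.91% of all named genes did).

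Microglia are the brain's resident macrophages, and 22 of 28 tested microglial genes were lower with cannabis, with a median of -0.09 and -0.11 without replicates 4 and 5. Laptm5, a lysosomal protein of blood-derived and microglial cells, had 10.40, 10.45, 10.29 and 10.29 in P28 cannabis mice, against 10.73, 10.46, 10.72 and 10.75 in P28 vehicle mice. The groups did not overlap, with vehicle replicate 2 next to the highest cannabis array (-0.31 ± 0.08, unadjusted p 0.000847). Csf1r, the receptor on which microglia depend for survival, differed by -0.16 ± 0.08 and Fcer1g by -0.15 ± 0.10, each with overlapping groups. P2ry13 differed by -0.18 ± 0.11 and Cx3cr1, the fractalkine receptor, by -0.21 ± 0.14, also with overlapping groups. Ltc4s went the other way, at 0.10 ± 0.06 with overlapping groups, and was 1 of 6 members with a higher mean. Laptm5 was the list's lone member without overlap (0.766% of all named genes had all cannabis arrays below). The mean level of the 28 genes was 7.88 to 7.96 with cannabis and 7.96 to 8.03 with vehicle, so the levels met without a gap.

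**Figure D2:**
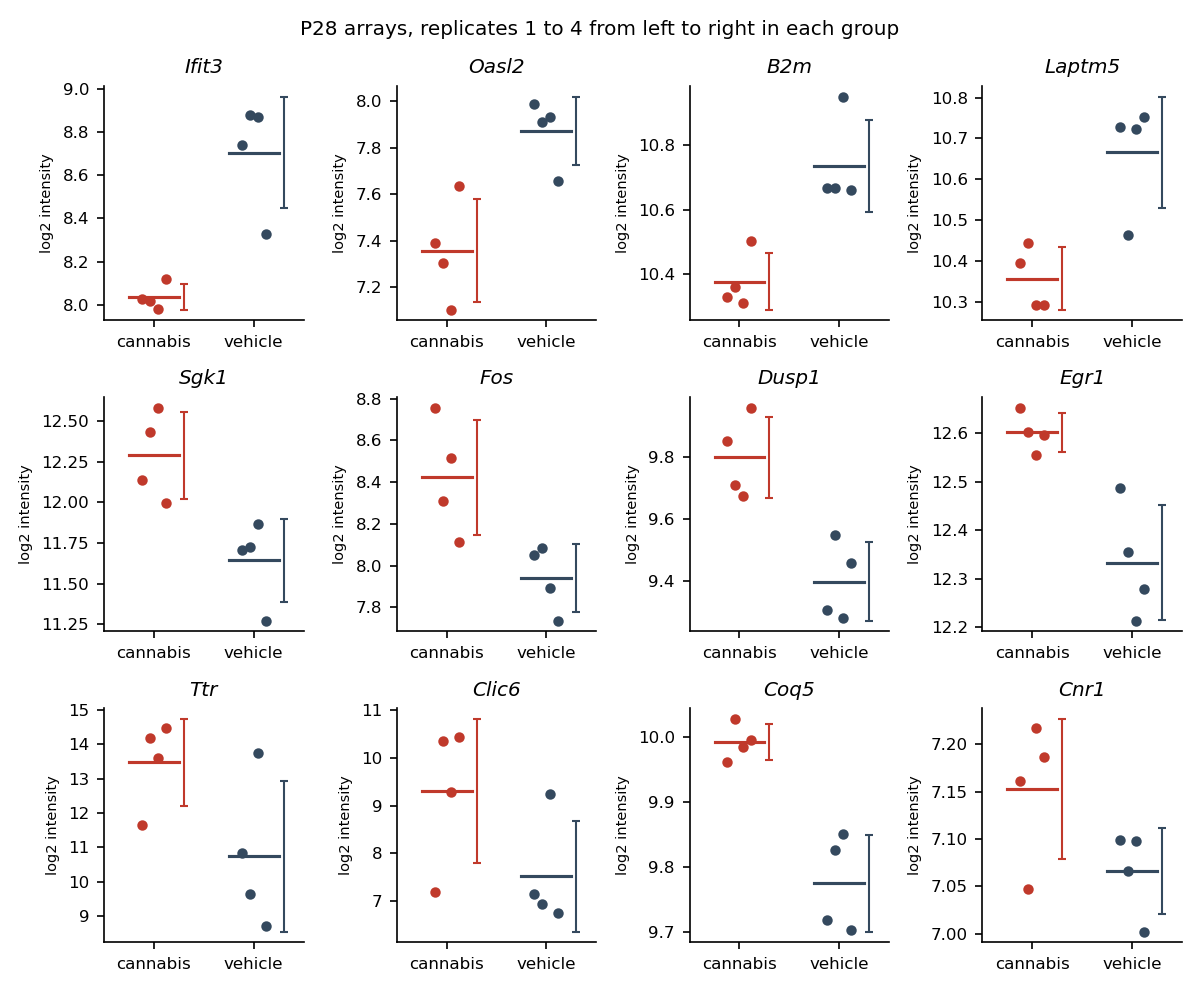
Log2 intensity of 12 genes in each P28 array, cannabis on the left and vehicle on the right, with dots for replicates 1 to 4 from left to right, a line at the mean and a bar for 1 SD. Ifit3, Oasl2, B2m and Laptm5 were lower with cannabis and Sgk1, Fos, Dusp1, Egr1 and Coq5 higher without overlap, while Ttr and Clic6 overlap, with vehicle replicate 3 high and cannabis replicate 1 low, and Cnr1 spans 7.002 to 7.22 over both groups.

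Genes of neuronal activity were mostly higher with cannabis. Of 17 tested immediate early transcription factors, 15 had a higher mean, with a median of 0.17 over the list and 0.12 without replicates 4 and 5. The median was 0.17, 0.04, 0.26 and 0.12 in pairs 1 to 4, and 0.10 without cannabis replicate 1. In this list 2 genes, Egr1 and Fos, had cannabis arrays all above vehicle arrays (0.91% of all named genes did). The gap between the groups was 0.07 for Egr1 and 0.03 for Fos. Of the 17, 1 passed the background filter only through the P28 cannabis arrays and 1 only through the P28 vehicle arrays. Egr1, a zinc finger factor induced by synaptic activity, had 12.65, 12.60, 12.56 and 12.60 in P28 cannabis mice, against 12.49, 12.35, 12.21 and 12.28 in P28 vehicle mice (0.27 ± 0.08, unadjusted p 0.00286, adjusted p 1.0, limma). The cannabis arrays spread less than the vehicle arrays. Fos, part of the AP-1 factor and a common mark of recently active neurons, had 8.76, 8.31, 8.51 and 8.11 with cannabis, against 8.05, 8.09, 7.89 and 7.74 with vehicle (0.48 ± 0.18). Egr2 had 7.80, 7.51, 8.04 and 7.48 with cannabis, against 7.50, 7.26, 7.42 and 7.22 with vehicle (0.36 ± 0.13). Its lowest cannabis array sat just under the highest vehicle array. Egr3 differed by 0.29 ± 0.12, with the opposite sign in its other probe, and Jun by 0.24 ± 0.15.

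Of 23 tested activity-induced effectors, which act at synapses or in signalling rather than on DNA, 17 were higher with cannabis, with a median of 0.035. The median was 0.075 without replicates 4 and 5 and 0.094 without cannabis replicate 2. Dusp1, a phosphatase that turns off MAP kinases, had 9.85, 9.71, 9.67 and 9.96 in P28 cannabis mice, against 9.31, 9.55, 9.28 and 9.46 in P28 vehicle mice (0.40 ± 0.13, unadjusted p 0.00588). Its groups did not overlap. Arc, which trims AMPA receptors from synapses, had 9.63, 9.70, 10.48 and 9.85 with cannabis, against 9.04, 9.45, 9.45 and 9.73 with vehicle (0.50 ± 0.21). Cannabis replicate 3 was the highest and the groups overlapped. Nptx1, a pentraxin that gathers AMPA receptors, had no overlap (0.23 ± 0.16), and neither had Pim1, a kinase that was above background on 2 cannabis arrays and 0 vehicle arrays.

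The window of Dusp1 is shown because it holds the palindromic cAMP response element TGACGTCA (capitals), at chr17:26508473-26508722, minus strand, by the same source and layout as above.
Dusp1: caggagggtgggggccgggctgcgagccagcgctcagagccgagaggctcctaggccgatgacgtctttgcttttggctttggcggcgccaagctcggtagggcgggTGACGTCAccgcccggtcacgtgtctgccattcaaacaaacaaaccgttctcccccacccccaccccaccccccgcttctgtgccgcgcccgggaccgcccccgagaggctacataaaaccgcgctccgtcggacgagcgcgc
Among the 16 effectors with a window, 3 have these letters (Dusp1, Plk2 and Scg2, 18.8%), against 1.77% of all genes with a window. None of 14 windows of the immediate early transcription factors has them.

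Of 26 tested glucocorticoid-responsive genes, 21 were higher with cannabis, with a median of 0.11 and 0.12 without replicates 4 and 5, and of 0.10, 0.10, 0.18 and 0.10 in pairs 1 to 4. Without vehicle replicate 2 the median was 0.05. Sgk1, a kinase that regulates ion channels and is a direct target of the glucocorticoid receptor, had 12.14, 12.43, 12.58 and 12.00 in P28 cannabis mice, against 11.71, 11.72, 11.87 and 11.27 in P28 vehicle mice. All cannabis arrays were above all vehicle arrays. The difference was 0.65 ± 0.18 (unadjusted p 0.00198, adjusted p 1.0 in the unpaired fit, limma). In the paired fit its adjusted p of 0.0679 was the lowest of all kept probes, and in adults the difference was -0.26. Fkbp5, which lowers the receptor's affinity for hormone, had 9.13, 9.01, 8.97 and 8.75 with cannabis, against 8.76, 8.75, 8.76 and 8.77 with vehicle (0.21 ± 0.08). Cannabis replicate 4 was at the vehicle level. Cdkn1a, an inhibitor of cyclin-dependent kinases, differed by 0.31 ± 0.11 and overlapped at cannabis replicate 4. Arrdc2, an arrestin-domain protein, had 7.51, 7.68, 7.38 and 7.54 with cannabis, against 7.34, 7.24, 7.31 and 7.35 with vehicle (0.22 ± 0.10, no overlap). Dusp1 and other immediate early genes also answer glucocorticoids, so the lists are not independent.

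The Sgk1 window is shown because it holds a full match to the receptor's palindrome, AGAACA and TGTTCT spaced by any 3 bases (capitals, both strands searched), at chr10:21993640-21993889, plus strand, 1 of 6 windows listed for the gene.
Sgk1: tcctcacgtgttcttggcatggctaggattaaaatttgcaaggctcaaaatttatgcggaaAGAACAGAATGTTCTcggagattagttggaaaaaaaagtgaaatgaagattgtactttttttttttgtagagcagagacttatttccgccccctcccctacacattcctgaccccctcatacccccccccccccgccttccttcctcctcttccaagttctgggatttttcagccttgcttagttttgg
Of 23 genes of the list with a window, Sgk1 was the single match (4.35%), and 3 of 27025 genes have one (0.0111%).

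Clock genes, which glucocorticoids and time of day both shift, had a median of -0.02 over 17 genes, 8 higher and 9 lower, and of -0.01 without replicates 4 and 5. Without vehicle replicate 2 it was -0.06. Csnk1e, a kinase that marks PER proteins for breakdown, had 10.20, 10.04, 10.22 and 9.99 with cannabis, against 10.35, 10.36, 10.40 and 10.31 with vehicle (-0.24 ± 0.12, no overlap), but its other probe had the opposite sign. Dbp, a clock output factor, ran from 10.12 to 11.27 with cannabis and from 10.85 to 11.10 with vehicle (-0.35 ± 0.28).

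The largest differences belonged to the choroid plexus, the epithelium in the ventricles that makes cerebrospinal fluid and lies against the hippocampus. Of 29 tested genes of this epithelium, 27 were higher with cannabis, with a list median of 0.35 and 0.20 without replicates 4 and 5. Of the 27, 21 had an unadjusted p below 0.05 (limma, 1.19% of all named genes did on the higher side). The spread behind these p-values is pooled with the adult arrays, so they do not measure the P28 spread alone. The 29 include 10 genes that passed the background filter only through the P28 cannabis arrays, which favours a higher mean with cannabis in those 10. Ttr, the thyroxine carrier of cerebrospinal fluid, had 11.66, 14.20, 13.60 and 14.47 in P28 cannabis mice, against 10.84, 9.63, 13.75 and 8.72 in P28 vehicle mice. The groups overlapped: vehicle replicate 3 was above cannabis replicates 1 and 3, and the difference was 2.74 ± 0.84 (unadjusted p 0.0044, limma). Clic6, a chloride channel family protein, had 7.19, 10.36, 9.28 and 10.44 with cannabis, against 7.14, 6.94, 9.25 and 6.74 with vehicle (1.80 ± 0.56). The SD within P28 cannabis and P28 vehicle mice was 1.269 and 2.191 for Ttr, and 1.511 and 1.165 for Clic6. Aqp1, the water channel of the apical membrane, had 6.98, 8.21, 7.75 and 8.50 with cannabis, against 6.79, 6.90, 7.49 and 6.86 with vehicle (0.85 ± 0.22). In these genes cannabis replicate 1 had a level near the vehicle arrays, and vehicle replicate 3 a level near the cannabis arrays. Ecrg4, a secreted peptide precursor, differed by 1.39 ± 0.41, and Kl, the co-receptor of FGF23, by 0.94 ± 0.30. Cab39l, a scaffold of the LKB1 kinase, had 8.36, 8.78, 8.69 and 8.79 with cannabis, against 8.18, 8.25, 8.51 and 8.07 with vehicle (0.40 ± 0.10), and had the smallest p of the list.

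The difference was unevenly spread over the pairs: the list's median was 0.00, 0.59, 0.01 and 0.79 in pairs 1 to 4. No member had groups without overlap. Among the 29 genes, 10 passed the background filter only through the P28 cannabis arrays and 4 only through the P28 vehicle arrays. Without cannabis replicate 1, 11 probes passed the adjusted test, all higher with cannabis, among them Aqp1 (1.15 ± 0.16, adjusted p 0.0221), Folr1, the choroidal folate receptor (adjusted p 0.0343), a second probe of Cldn2, a tight junction claudin (adjusted p 0.0354), Ecrg4, Kl, Ace and Clic6. The remaining 4 were Defb11, an epithelial defensin, and 3 probes with no gene name here. The mean level of the 29 genes was 7.53, 8.43, 8.08 and 8.61 with cannabis, against 7.62, 7.57, 8.05 and 7.40 with vehicle. How much choroid plexus each dissection held was not tested.

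Ependymal cells, which line the ventricles with motile cilia, had 12 of 14 tested genes higher with cannabis and a median of 0.11, which was 0.06 without replicates 4 and 5 and 0.01 without cannabis replicate 2. Mia differed by 0.41 ± 0.18, and the cilia genes Rsph1 by 0.33 ± 0.26 and Dynlrb2 by 0.28 ± 0.32. The meninges and vessel collagens ran the other way, with 11 of 15 genes lower and a median of -0.15, which was -0.26 without replicates 4 and 5 and -0.04 without vehicle replicate 1. Slc6a13, a GABA and taurine transporter of the leptomeninges, had 7.24, 7.29, 7.28 and 7.11 with cannabis, against 7.97, 7.80, 7.38 and 7.12 with vehicle (-0.34 ± 0.14). The vehicle arrays of replicates 1 and 2 were high and the others at the cannabis level. Ptgds, a prostaglandin synthase of the leptomeninges and choroid plexus, ran from 8.58 to 9.70 with cannabis and from 8.91 to 10.22 with vehicle (-0.46 ± 0.34), and Acta2, smooth muscle actin, from 9.21 to 9.58 with cannabis and from 9.32 to 10.91 with vehicle (-0.52 ± 0.25).

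**Figure D3:**
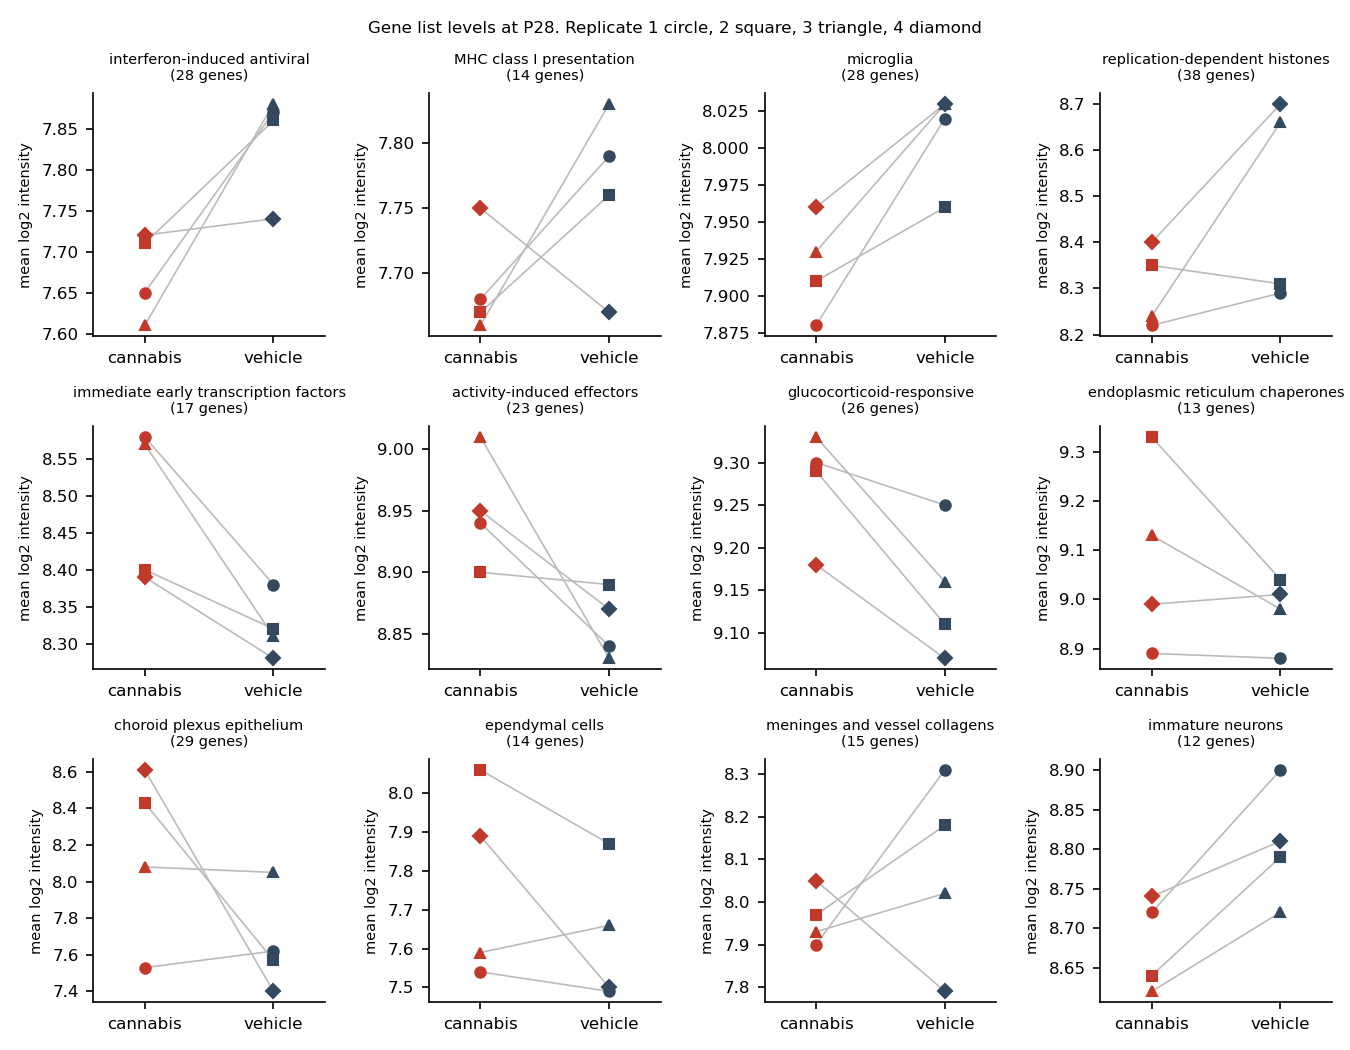
Mean log2 intensity of the tested genes of 12 lists in each P28 array, cannabis on the left and vehicle on the right, with grey lines joining same-numbered replicates. The interferon, immediate early and effector lists do not overlap between the groups at 2 decimals, but by narrow margins. The nearest cannabis and vehicle levels were 7.72 and 7.74 for interferon, 8.39 and 8.38 for immediate early and 8.90 and 8.89 for effector genes. The choroid plexus list is split between cannabis replicates 2 to 4 with vehicle replicate 3 and the rest. Each panel has its own y axis.

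Replication-dependent histone genes were picked out after their values were seen, and so are a description only. Dividing cells make these histones in S phase from clustered genes whose transcripts normally end in a stem loop instead of a poly(A) tail. Of 38 such genes tested, 36 were lower with cannabis, with a median of -0.14, which was -0.11 without replicates 4 and 5, -0.21 without vehicle replicate 1 and -0.08 without vehicle replicate 4. The 38 lie in clusters on chromosomes 13 (31 genes) and 3 (7 genes). Many are close copies of others of the same histone type, so a probe may read several genes, and the list is not 38 separate observations. H4c1 had 7.71, 7.80, 7.56 and 7.83 in P28 cannabis mice, against 7.97, 7.72, 9.39 and 9.23 in P28 vehicle mice (-0.85 ± 0.26, unadjusted p 0.00432). H4c11 had 7.31, 7.73, 7.38 and 7.58 with cannabis, against 7.61, 7.63, 8.63 and 8.58 with vehicle (-0.61 ± 0.19). Vehicle replicates 3 and 4 were the high arrays for both H4 genes, and the others overlapped. H1f2, a linker histone, had 10.87, 10.59, 10.56 and 10.98 with cannabis, against 11.42, 10.62, 11.75 and 11.27 with vehicle (-0.51 ± 0.19). The list was lower in 26, 13, 36 and 35 of its 38 genes in pairs 1 to 4, and 12 further probes for these genes had the same sign as the chosen one in 8 cases. Of the 38, 5 passed the background filter only through the P28 vehicle arrays. The proliferation list, with cell cycle genes other than histones, had a median of -0.003 (-0.011 without replicates 4 and 5), with 6 of 14 genes higher, though Pcna, the DNA clamp, was at -0.14 ± 0.06.

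**Figure D4:**
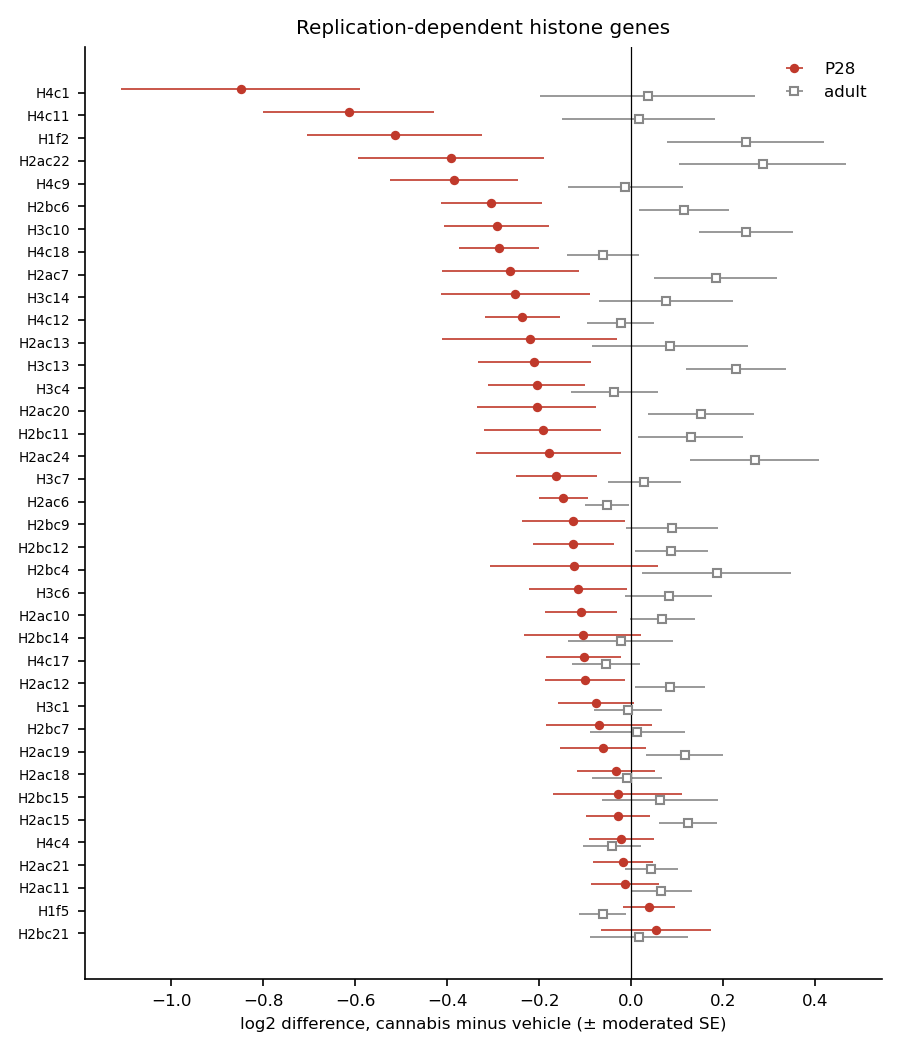
Log2 difference of cannabis minus vehicle with its moderated SE for 38 replication-dependent histone genes, sorted by the P28 difference, at P28 (filled, 4 against 4 arrays) and in adults (open, 5 against 5 arrays). At P28, 36 of 38 lie below 0, and in adults 27 lie above 0. The list was chosen after its values were seen.

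Endocannabinoid genes, the drug's direct targets and their enzymes, showed no difference beyond the spread. Of the list, 13 genes were above background, 8 higher and 5 lower with cannabis, with differences of -0.07 to 0.10, a median of 0.02 (-0.001 without replicates 4 and 5) and the smallest unadjusted p at 0.137 (Cnr1). Cnr1 had 7.16, 7.05, 7.22 and 7.19 in P28 cannabis mice, against 7.10, 7.07, 7.10 and 7.002 in P28 vehicle mice (0.09, 95% interval -0.03 to 0.20), and lay close to background. The groups overlapped at cannabis replicate 2. Of the enzymes, Faah, which breaks down anandamide, differed by -0.01 (95% interval -0.24 to 0.23) and Mgll, which breaks down 2-arachidonoylglycerol, by 0.02 (-0.35 to 0.39). Daglb, which makes 2-arachidonoylglycerol, differed by 0.02 (-0.17 to 0.22), and Napepld, which makes anandamide, by 0.10 (-0.14 to 0.35). Abhd6 and Abhd12, further lipases of 2-arachidonoylglycerol, differed by -0.07 (-0.34 to 0.21) and 0.04 (-0.14 to 0.23). Abhd4 and Gde1, of a second route to anandamide, differed by -0.07 (-0.27 to 0.13) and 0.07 (-0.16 to 0.31). The CB1 partners Cnrip1 and Sgip1 differed by 0.03 (-0.12 to 0.19) and -0.03 (-0.27 to 0.21), the carrier Fabp5 by -0.01 (-0.26 to 0.24), and the nuclear receptor Pparg, at background on most arrays, by 0.06 (-0.07 to 0.18). Of the 2 other probes of each, 1 had the opposite sign for Faah, Mgll and Gde1, and both had it for Sgip1. These intervals include 0 but do not show that levels were alike, and Cnr2, Dagla, Naaa, Gpr55, Trpv1, Ppara and Fabp7 had too few arrays above background to be tested.

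**Figure D5:**
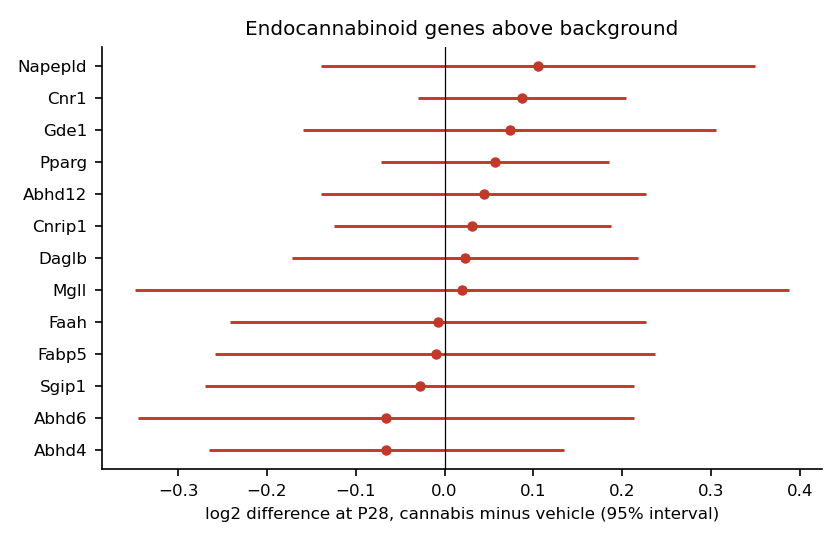
Log2 difference of P28 cannabis minus P28 vehicle with its 95% interval from limma for the 13 endocannabinoid genes above background. All intervals include 0, and they reach from -0.35 to 0.39 at most.

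Among 17 genes of GABA interneurons, 11 were lower with cannabis (median -0.04, and -0.07 without replicates 4 and 5). Sst, somatostatin, had 11.76, 11.17, 11.27 and 11.80 with cannabis, against 11.84, 11.48, 11.78 and 12.00 with vehicle (-0.28 ± 0.16), and was lower in 4 of 4 same-numbered pairs (6.15% of all named genes were), although the groups overlapped. Reln, the secreted guide of Cajal-Retzius cells and interneurons, differed by -0.25 ± 0.16 and Npy, neuropeptide Y, by -0.15 ± 0.13. AMPA, NMDA and kainate receptor subunits (11 genes) had a median of -0.02, which was 0.04 without replicates 4 and 5, with the kainate subunit Grik1 lowest by p at -0.27 ± 0.13. GABA receptor subunits (8 genes) had a median of 0.013 (0.004 without replicates 4 and 5), and Gabrd, the extrasynaptic delta subunit, differed by -0.22 ± 0.13, with the opposite sign in its other probe. Dentate granule genes (8) had a median of -0.04 and CA1 and CA3 pyramidal genes (13) of 0.005. Without replicates 4 and 5 these were -0.09 for dentate and 0.055 for pyramidal genes, and the dentate median was 0.02 without cannabis replicate 3.

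Of 12 genes of immature neurons, 10 were lower with cannabis (median -0.12, and -0.14 without replicates 4 and 5), whereas their adult median was 0.18. Marcksl1, an actin regulator of growing processes, had 9.72, 9.41, 9.12 and 10.00 with cannabis, against 10.23, 9.78, 9.67 and 10.23 with vehicle (-0.42 ± 0.27). Gap43, of growth cones, differed by -0.31 ± 0.23. Both were lower with cannabis in 4 of 4 pairs, and the groups of each overlapped. In the paired fit the unadjusted p was 0.000127 for Marcksl1 and 0.00453 for Gap43, and the adjusted p was 0.547 for Marcksl1 and 0.97 for Gap43 (limma). Oligodendrocyte precursors had 8 of 10 genes lower (median -0.10), with Nkx2-2, a factor of their differentiation, at -0.22 ± 0.10, and the list's median was -0.20 without replicates 4 and 5, -0.19 without cannabis replicate 2 and 0.007 without cannabis replicate 1. Myelin genes (16) had a median of -0.07, which was -0.15 without replicates 4 and 5, -0.19 without cannabis replicate 2 and 0.06 without cannabis replicate 1. Astrocyte (18), endothelial (18), perineuronal net (7) and haemoglobin (4) lists had medians of -0.02, -0.02, -0.06 and 0.04, and without replicates 4 and 5 of 0.01, -0.02, -0.09 and -0.02. Of the astrocyte genes, 11 were lower with cannabis and 7 higher. Aqp4, the water channel of astrocyte endfeet, had 8.65, 8.93, 9.14 and 8.91 with cannabis, against 9.15, 9.35, 9.15 and 9.21 with vehicle (-0.31 ± 0.16). Its groups did not overlap, by a gap of 0.007. Gfap differed by -0.22 ± 0.16, while Fgfr3 (0.096 ± 0.095) and Slc1a2 (0.11 ± 0.11) were higher. Of the 2 other probes of Slc1a2, 1 had the same sign. Thalamic and habenular genes, which would mark tissue beside the hippocampus, had a median of -0.03 over 7 genes (-0.06 without replicates 4 and 5), with Slc17a6 at -0.35 ± 0.42.

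Of 13 chaperones of the endoplasmic reticulum, which fold secreted proteins, 12 were higher with cannabis (median 0.12, and 0.17 without replicates 4 and 5). The excess was largest in replicate 2, and the median was 0.04 without cannabis replicate 2. Herpud1, an endoplasmic reticulum membrane protein of the degradation pathway, had 11.02, 11.31, 11.22 and 11.24 with cannabis, against 10.84, 10.92, 10.97 and 11.06 with vehicle (0.25 ± 0.14). Cannabis replicate 2 was also among the arrays with the highest choroid plexus level, and the part of that tissue in this list was not tested. Cytosolic heat shock proteins (12 genes) had a median of 0.004, and 0.03 without replicates 4 and 5. Cholesterol synthesis genes (16) had a median of -0.009, with 5 higher, whereas without replicates 4 and 5 it was -0.10, with 1 higher. Of 9 genes of coenzyme Q synthesis, only Coq5 had an unadjusted p below 0.05, and the list's median was 0.008, or 0 to 2 decimals without replicates 4 and 5.

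Coq5, a methyltransferase of coenzyme Q synthesis, had the smallest p among genes higher with cannabis. It had 9.96, 10.03, 9.98 and 9.99 in P28 cannabis mice, against 9.72, 9.83, 9.85 and 9.70 in P28 vehicle mice (0.22 ± 0.05, unadjusted p 0.000458, adjusted p 1.0, limma). Both groups were tight and did not overlap, and its 2 other probes had the same sign. Among the 15 genes with the smallest p that were higher, 6 had no overlap between groups, against 0.91% of all named genes on that side. That count is favoured by picking genes by p on the same arrays. Of the 15, 5 were choroid plexus list members. Outside the list, Cd59a, a complement inhibitor, had 8.32, 8.92, 8.54 and 8.88 with cannabis, against 8.32, 8.17, 8.29 and 8.16 with vehicle (0.43 ± 0.12). Ppp1r1b, the phosphatase inhibitor DARPP-32, had 9.40, 10.10, 9.53 and 9.92 with cannabis, against 9.44, 9.24, 9.44 and 9.12 with vehicle (0.43 ± 0.12). Both were high in cannabis replicates 2 and 4, the arrays with the highest choroid plexus level, and the part of that tissue was not tested. Itpripl1 differed by 0.29 ± 0.08 and Edem2, of endoplasmic reticulum degradation, by 0.23 ± 0.07. E2f6, a repressor of cell cycle genes, differed by 0.25 ± 0.08 and Acbd5, a peroxisomal protein, by 0.16 ± 0.05. Defb11, on 3 cannabis arrays and 1 vehicle array above background, differed by 0.59 ± 0.18. Ace, the angiotensin-converting enzyme and a member of the choroid plexus list, differed by 0.39 ± 0.12.

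Among the 15 genes with the smallest p that were lower, 11 had no overlap, against 0.766% of all named genes on that side. Picking by p on the same arrays favours genes without overlap, so the count is no separate support. Rfesd, a Rieske iron-sulfur domain protein, had 7.53, 7.44, 7.47 and 7.65 with cannabis, against 7.84, 7.81, 7.65 and 7.82 with vehicle (-0.26 ± 0.06, unadjusted p 0.000261). Rnf14, a ubiquitin ligase, had 12.24, 12.08, 12.27 and 12.24 with cannabis, against 12.54, 12.49, 12.39 and 12.49 with vehicle (-0.27 ± 0.07), but of its 2 other probes 1 had the opposite sign. Cd248, of pericytes and fibroblasts, differed by -0.22 ± 0.07. Fam180a (-0.27 ± 0.08) and Parvg (-0.17 ± 0.05) were above background on 0 cannabis arrays and 3 vehicle arrays each, as was H4c18 on 0 and 2 (-0.29 ± 0.09). The pseudogenes Pisd-ps3 and Pisd-ps1 share sequence with Pisd, so their probes may read more than 1 locus. Pisd-ps3 had 7.40, 8.79, 8.56 and 8.84 with cannabis, against 9.46, 9.10, 9.78 and 10.02 with vehicle (-1.19 ± 0.37). All cannabis arrays were below all vehicle arrays, and cannabis replicate 1 was the lowest of the 8. Pisd-ps1 differed by -0.58 ± 0.27. Fam171a1 had 8.65, 7.22, 7.55 and 7.26 with cannabis, against 8.32, 8.92, 7.73 and 8.998 with vehicle (-0.82 ± 0.34), with cannabis replicate 1 among the vehicle arrays. Of the choroid genes, Wfdc2, a secreted protease inhibitor-like protein, differed by 0.82 ± 0.27 and Sostdc1, a BMP antagonist, by 0.67 ± 0.22.

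The adult contrast, from mice with the same juvenile feeding killed weeks later, shares no array with the P28 contrast, and no probe passed a test of the difference between them (0.0%, lowest adjusted p 1, limma, 334 of 10438 named genes at an unadjusted p below 0.05, 3.2%). Over 10438 named genes, the P28 and adult differences had a Pearson correlation of -0.135, given as a description. Of the 15 genes with the smallest p that were higher at P28, 8 had the same sign in adults, and of the 15 lower ones 6. By the smallest p in that test, the first 5 were Rfesd (P28 -0.26, adult 0.10), B2m (P28 -0.36, adult 0.11), Ifitm1 (P28 -0.31, adult 0.09), Coq5 (P28 0.22, adult -0.07) and Slc38a2, a neutral amino acid transporter (P28 0.26 ± 0.12, adult -0.41). Slc38a2 had 9.67, 9.63, 9.65 and 9.54 in P28 cannabis mice, against 9.14, 9.57, 9.29 and 9.41 in P28 vehicle mice, and of its 2 other probes 1 had the opposite sign. Egr1 had the same direction at both ages (P28 0.27, adult 0.35), and Fos did not (P28 0.48, adult -0.04). The adult medians were -0.04 for the choroid plexus list (0.35 at P28), 0.04 for microglia (-0.09 at P28), -0.002 for immediate early transcription factors (0.17 at P28) and -0.015 for glucocorticoid-responsive genes (0.11 at P28).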

How the data were processed

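Total RNA was extracted from hippocampus with TRIzol and labelled as biotinylated cRNA for Illumina mouse bead arrays, per the labels' protocols. The values used are the log2 intensities of the deposited value table, of which every column has nearly the same distribution (median 6.86, range 6.50 to 15.07). Per the submitters' processing notes the tool was Partek, and the steps taken by the authors are not given in the sources used here. Unexpressed probes form a peak at 6.77 with an SD of 0.0702, and 6.98 is the peak plus 3 SD. A further 72 per-sample columns of other tables, named by slide position, matched no label and were not used, so detection p and slides were not modelled and the planned start from raw signals was replaced by this table.

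Gene names came from the platform annotation: 34885 probes have 1 symbol, 18 several and 10378 none here. The 4 group means were fitted over all 18 arrays with limma 3.58.1 (R 4.3.3), with moderated 2-sided tests, 14 residual and 3.93 prior degrees of freedom, and Benjamini-Hochberg adjustment over the kept probes at 0.05. The fit was also run on simulated data with independent noise. Such data lack the shared deviations of same-numbered arrays given below, so the run says nothing on their effect. Errors of differences are moderated SE, and n is 4 arrays a group at P28 and 5 in adults, which limits the precision. Same-numbered P28 arrays deviated together from their group means, with correlations of 0.196, 0.339, 0.383 and 0.534 for numbers 1 to 4, so a paired fit is given beside the unpaired one. The labels do not say what the numbers share.

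A gene is read from its kept probe with the highest mean. Named are the 15 smallest p and the 8 largest differences in each direction, up to 4 members of each list described with the smallest p, the endocannabinoid genes above background, the 5 smallest p in the test of P28 against adult differences, and genes singled out for a stated reason. The members and lists were chosen with earlier results of these data known, and Zbp1, Gbp3, Cldn2, Nptx1, Pim1 and further list members outside the rule were named after their values were seen. Promoter windows are from RefSeq (GRCm38.p6). The alternatives tried were other background filters, priors, array weights, sample sets, blocks by replicate number and by order of deposit, normexp background correction, the mean of a gene's probes, and leaving out each array in turn.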

Additional observations from a re-analysis of the deposited data

Results flagged for a closer look

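Among 266 sets of 4 P28 arrays checked, for each gene named and each list level, 11 had an array set far from the other 3 (a gap past Dixon's critical value for 4 samples). Chance alone flags about 1 in 20 such sets. Vehicle replicate 3 was the high array for 3 choroid plexus genes: Aqp1 at 7.49 (others 6.79 to 6.90), Clic6 at 9.25 (others 6.74 to 7.14) and Cldn2 at 7.38 (others 6.799 to 6.87). The same array was high for B2m, at 10.95 (others 10.66 to 10.67). Vehicle replicate 4 was low for the interferon list level, at 7.74 (others 7.86 to 7.88), and for Nkx2-2, at 7.74 (others 7.99 to 8.03). Vehicle replicate 2 was low for Laptm5, at 10.46 (others 10.72 to 10.75), and for the microglia list level, at 7.96 (others 8.02 to 8.03). Among cannabis arrays, Daglb was low in replicate 2 at 9.28 (others 9.47 to 9.50), Rnf14 low in replicate 2 at 12.08 (others 12.25 to 12.26) and Reln high in replicate 3 at 10.61 (others 10.39 to 10.42).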

How the results depend on the processing

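No probe passed the adjusted test between P28 cannabis and vehicle mice under 31 of 32 alternatives, and leaving out an array gave 0 to 11 probes, the 11 without P28 cannabis replicate 1. The difference between ages gave 0 probes in every alternative that allowed it. The number of P28 probes at an unadjusted p below 0.05 was 327 of 18249 as reported (limma), and 1417 of 45281 with no background filter. It was 180 with probes above background in all 18 arrays and 199 over genes averaged from their probes, where fewer features were tested. With array weights it was 603, and with 3 sets in order of deposit as a block it was 534. It was 920 with the replicate block and 568 with the replicate block over all 18 arrays, and the pairing changed no call. Leaving out single arrays gave 250 to 422. Medians of the interferon, MHC class I, choroid plexus, ependymal, immediate early, effector, glucocorticoid, microglia, immature neuron, chaperone and histone lists kept their sign in all 31 alternatives. Normexp correction moved the most gene differences, all in size. Dim probes are limited by the unsubtracted background, and 4 arrays a group by their spread. Why the counts differ between settings was not tested, except where fewer or more features were used.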

Other observations

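Further members of the interferon list, of moderate size, had the same direction. Ifi27l2a, an interferon-induced mitochondrial protein, had 6.85, 7.13, 6.78 and 7.11 in P28 cannabis mice, against 7.32, 7.10, 7.47 and 7.10 in P28 vehicle mice (-0.28 ± 0.09), so replicates 2 and 4 of the groups were alike and 1 and 3 apart. Ifitm3, a barrier to virus entry, had 8.39, 8.64, 8.56 and 8.73 with cannabis, against 9.03, 8.99, 8.93 and 8.64 with vehicle (-0.31 ± 0.13), and Trim25, a ubiquitin ligase of RNA sensing, differed by -0.17 ± 0.07. Lgals3bp, a secreted glycoprotein, differed by -0.21 ± 0.12.

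Some list members with no overlap between the groups had a small difference against the error of the fit. Plin4, a lipid droplet protein of the glucocorticoid list, had 7.59, 7.69, 7.55 and 7.19 with cannabis, against 7.14, 6.98, 7.14 and 7.05 with vehicle (0.43 ± 0.30). Psme2, a proteasome activator subunit of the MHC class I list, differed by 0.05 ± 0.06. Gabra4, a GABA-A receptor subunit, was above background on 3 cannabis arrays and 0 vehicle arrays and differed by 0.05 ± 0.04.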
